A study of Mus musculus with 6 samples.

Results

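The glucocorticoid receptor gene *Nr3c1* and 7 target genes of the receptor (*Tsc22d3*, *Fkbp5*, *Ddit4*, *Zbtb16*, *Sgk1*, *Dusp1* and *Klf9*) were examined in liver F4/80-positive cells. They were found by gene symbol in the GENCODE M21 annotation and are 8 of the 49315 genes with deposited read counts. RNA had been sequenced from 3 WT and 3 Lpcat3 KOMac mice, with 1 library per mouse. All 6 mice carried *Lpcat3* alleles flanked by loxP sites and had eaten a diet with 60% fat for 16 weeks. The Lpcat3 KOMac mice also carried Cre recombinase in 1 copy of the lysozyme gene *Lyz2*, which drives it in myeloid cells in general rather than in Kupffer cells alone, and WT mice were littermates without Cre. The cells had been freed by collagenase, separated from hepatocytes by a slow spin and bound to F4/80 magnetic beads. The labels call them Kupffer cells, that is, macrophages that reside in the liver, and give neither the age of the mice nor the hour at which livers were taken.

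Glucocorticoids such as corticosterone enter cells and bind the receptor, which is held in the cytoplasm by heat shock protein chaperones. The bound receptor moves to the nucleus, where it attaches to glucocorticoid response elements and activates target genes or restrains inflammatory ones. In macrophages it is known for limiting cytokine production, and in hepatocytes for driving gluconeogenesis. Corticosterone in plasma rises with stress and follows a daily rhythm.

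No member passed the test for a difference between the genotypes. The quasi-likelihood test of edgeR, adjusted by Benjamini-Hochberg over the 16134 genes tested, called 0 of the 8 members, where it called 0% of all genes. At an unadjusted p under 0.05 it took 1 member, *Tsc22d3*, where 2.64% of all genes tested passed. DESeq2 and limma-voom also called 0 members, with 1 and 2 at an unadjusted p under 0.05. The edgeR test did not call the deleted gene *Lpcat3* either (log2 fold change of Lpcat3 KOMac over WT -1.56, standard error 0.26). Nor did it call *Lyz2*, the gene that carries Cre (-1.42, standard error 0.3). That a gene was not called therefore does not show it to be unchanged. The members behaved in different ways across the mice: the receptor and *Sgk1* were nearly level, *Tsc22d3* was lower in every Lpcat3 KOMac mouse, and *Fkbp5*, *Ddit4*, *Zbtb16* and *Klf9* were far higher in WT mouse 1 than in WT mice 2 and 3.

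The libraries held between 44954224 and 71392812 counts, so that 1 CPM (read counts brought to an equal library size, with the TMM correction for composition) rested on 45.7 to 65 reads. *Lpcat3* was at 85, 66.2 and 61.2 CPM in the WT mice 1 to 3, against 19.5, 33.3 and 19.4 CPM in Lpcat3 KOMac mice 1 to 3, each Lpcat3 KOMac mouse being below each WT mouse. All 6 Kupffer cell markers were present in every library. Their summed level was 24900 to 34000 CPM in the WT mice and 18900 to 27200 CPM in the Lpcat3 KOMac mice. Picked after their values were seen, *Marco* and *Timd4* were at 148 and 123 CPM in Lpcat3 KOMac mouse 2. In the other libraries they were at 999 to 3170 and 344 to 938 CPM. Each of the 6 markers was highest in WT mouse 2 and lowest in Lpcat3 KOMac mouse 2. All 6 had a log2 fold change (Lpcat3 KOMac over WT) below 0, as had 59.9% of all genes tested, with a median of -0.25. Of these markers *Clec4f* was lower in every Lpcat3 KOMac mouse (log2 fold change -0.44, standard error 0.17). The part of the Kupffer cell markers in the member levels was not tested. Transcripts of hepatocytes were present too: the sum of 5 hepatocyte markers (*Alb*, *Apoa1*, *Ttr*, *Fgb* and *Ahsg*) was 19300, 1750 and 1730 CPM in the WT mice 1 to 3, against 4460, 12500 and 4340 CPM in Lpcat3 KOMac mice 1 to 3. Markers of sinusoidal endothelial cells summed to 795 to 909 CPM in WT and 880 to 1060 CPM in Lpcat3 KOMac mice, and those of monocytes to 75.3 to 142 and 74 to 141 CPM. By the hepatocyte markers, WT mouse 1 and Lpcat3 KOMac mouse 2 stood apart from the other libraries. In such bulk samples fewer cells of a type and less RNA per cell cannot be told apart.

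*Nr3c1* (ENSMUSG00000024431, chromosome 18 of GRCm38, 39410545 to 39491301 in the deposited tables, minus strand) encodes the receptor itself. Its level was 191, 220 and 185 CPM in the WT mice 1 to 3, against 198, 188 and 192 CPM in Lpcat3 KOMac mice 1 to 3. All 3 Lpcat3 KOMac values lay inside the WT range. WT cells averaged 199 ± 18.6 CPM (SD, n = 3) and Lpcat3 KOMac cells 193 ± 5.01 CPM (SD, n = 3). The resulting log2 fold change, Lpcat3 KOMac over WT, was -0.04, with a standard error (SE) of 0.09 and a 95% interval from -0.27 to 0.18. The within-genotype SD of its log2 CPM was 0.10, and 87.4% of all genes tested had a larger one. The sign of this small difference turned when total counts replaced TMM scaling.

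*Sgk1* (ENSMUSG00000019970, chromosome 10, 21882184 to 21999903, plus strand), a serine/threonine kinase that acts on ion channels and was named for its induction by serum and glucocorticoids, was even more level. It was at 245, 251 and 244 CPM in the WT mice 1 to 3, against 252, 228 and 223 CPM in Lpcat3 KOMac mice 1 to 3. The highest library exceeded the lowest 1.13-fold, and the groups overlapped. The log2 fold change was -0.07 (SE 0.08, 95% interval -0.27 to 0.13), with a sign that also turned under total counts, and 94.8% of all genes tested varied more within genotypes. WT mouse 1, which led in 5 other members, was not set apart here.

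For *Sgk1*, *Tsc22d3* and *Dusp1*, 1 promoter window each is shown. The genes were taken because they are textbook direct targets and differed in how evenly they were expressed. *Sgk1* had 6 windows and *Tsc22d3* 3, and those printed are the *Sgk1* window with the palindrome and the only *Tsc22d3* window with a half-site. For 6 of the 8 members, 13 windows of 250 bases before a gene start were taken from the RefSeq promoter table (build GRCm38.p6). No window of *Nr3c1* or *Zbtb16* was searched, so nothing is said here about motifs in their promoters. The windows were searched on both strands for the palindromic glucocorticoid response element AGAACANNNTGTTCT, its half-site TGTTCT (present on both sides of the palindrome), the cAMP response element TGACGTCA and the E-box CACGTG bound by clock factors. Each sequence below is written 5′ to 3′ on the strand of the gene, and capitals mark the letters that matched any of these motifs.
Sgk1 (chr10:21993640-21993889, plus strand): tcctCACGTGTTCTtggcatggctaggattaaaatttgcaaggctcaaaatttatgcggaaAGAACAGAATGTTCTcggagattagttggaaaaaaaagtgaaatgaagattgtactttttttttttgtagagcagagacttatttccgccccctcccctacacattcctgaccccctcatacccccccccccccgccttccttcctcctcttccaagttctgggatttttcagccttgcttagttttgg
Tsc22d3 (chrX:140600523-140600772, minus strand): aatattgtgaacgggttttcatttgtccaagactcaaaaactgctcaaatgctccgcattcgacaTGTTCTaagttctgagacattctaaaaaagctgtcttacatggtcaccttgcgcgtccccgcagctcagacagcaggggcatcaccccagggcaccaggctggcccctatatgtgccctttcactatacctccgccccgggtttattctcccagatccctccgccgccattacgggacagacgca
Dusp1 (chr17:26508473-26508722, minus strand): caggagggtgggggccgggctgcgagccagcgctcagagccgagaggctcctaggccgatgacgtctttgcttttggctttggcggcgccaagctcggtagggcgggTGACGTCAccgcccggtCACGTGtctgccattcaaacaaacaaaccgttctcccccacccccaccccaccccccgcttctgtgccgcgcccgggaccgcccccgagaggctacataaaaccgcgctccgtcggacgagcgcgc

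The full palindrome was found in 1 of the 13 windows, upstream of an internal start of *Sgk1*, beginning 189 bases before it. Of all 32851 promoter windows of this length, 3 held it (0.00913%). An E-box overlaps a further half-site near the beginning of the same *Sgk1* window. The half-site occurred in 4 of the 13 windows, which belong to *Sgk1* and *Tsc22d3*, and in 16.1% of all windows. The cAMP response element stood in 1 of the 13 windows, that of *Dusp1*, and in 1.55% of all windows. The E-box stood in 3 of the 13, of *Sgk1*, *Fkbp5* and *Dusp1*, and in 6.02% of all windows. These matches are letters in short windows, and many response elements lie farther from the start.

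*Tsc22d3* (ENSMUSG00000031431, chromosome X, 140539528 to 140600659, minus strand) encodes GILZ, an anti-inflammatory protein induced by glucocorticoids in macrophages and lymphocytes. It was at 258, 129 and 149 CPM in the WT mice 1 to 3, against 112, 88.9 and 89.1 CPM in Lpcat3 KOMac mice 1 to 3. Every Lpcat3 KOMac mouse was below every WT mouse, and it was the only member whose groups did not overlap. Of all genes tested, 5.2% were separated in this direction and 7.49% in either direction. WT cells averaged 179 ± 69.6 CPM (SD, n = 3) and Lpcat3 KOMac cells 96.7 ± 13.3 CPM (SD, n = 3), with a log2 fold change of -0.89 (SE 0.28, 95% interval -1.59 to -0.18). The p-value was 0.0217 unadjusted and 1 adjusted in the edgeR quasi-likelihood test, and 0.1 in a two-sided exact permutation test, the smallest that 3 mice against 3 allow. Without WT mouse 1 the log2 fold change was -0.52 (SE 0.14, adjusted p = 0.294, edgeR), and with any other mouse left out it was lower than that, down to -1.08. *Tsc22d3* kept its direction in all 6 of these fits, but as its groups did not overlap, leaving out 1 mouse could hardly turn it. The size of the difference depended on WT mouse 1. The unadjusted p ran from 0.0106 without WT mouse 2 to 0.0799 without Lpcat3 KOMac mouse 3 (edgeR).

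*Dusp1* (ENSMUSG00000024190, chromosome 17, 26505590 to 26508519, minus strand) encodes a phosphatase that switches off MAP kinases and is induced both by glucocorticoids and, as an immediate early gene, by stress signals. It was at 264, 316 and 219 CPM in the WT mice 1 to 3, against 235, 162 and 130 CPM in Lpcat3 KOMac mice 1 to 3. The groups overlapped through a single pair, Lpcat3 KOMac mouse 1 being above WT mouse 3. Its log2 fold change was -0.60 (SE 0.25, 95% interval -1.22 to 0.03). The p-value was 0.0572 unadjusted and 1 adjusted in the edgeR quasi-likelihood test, and 0.2 in a two-sided exact permutation test. The estimate ranged from -0.83 to -0.40 over the fits that omitted a mouse, and was -0.60 without WT mouse 1. In GENCODE M21, where *Dusp1* extends to 26562128, an exon of it shares 11 bases with *Ergic1* on the other strand. *Ergic1* had at most 5968 counts in any library. Whether the exons counted in the deposited tables, which end at 26508519, share these bases was not checked.

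**Figure D1:**
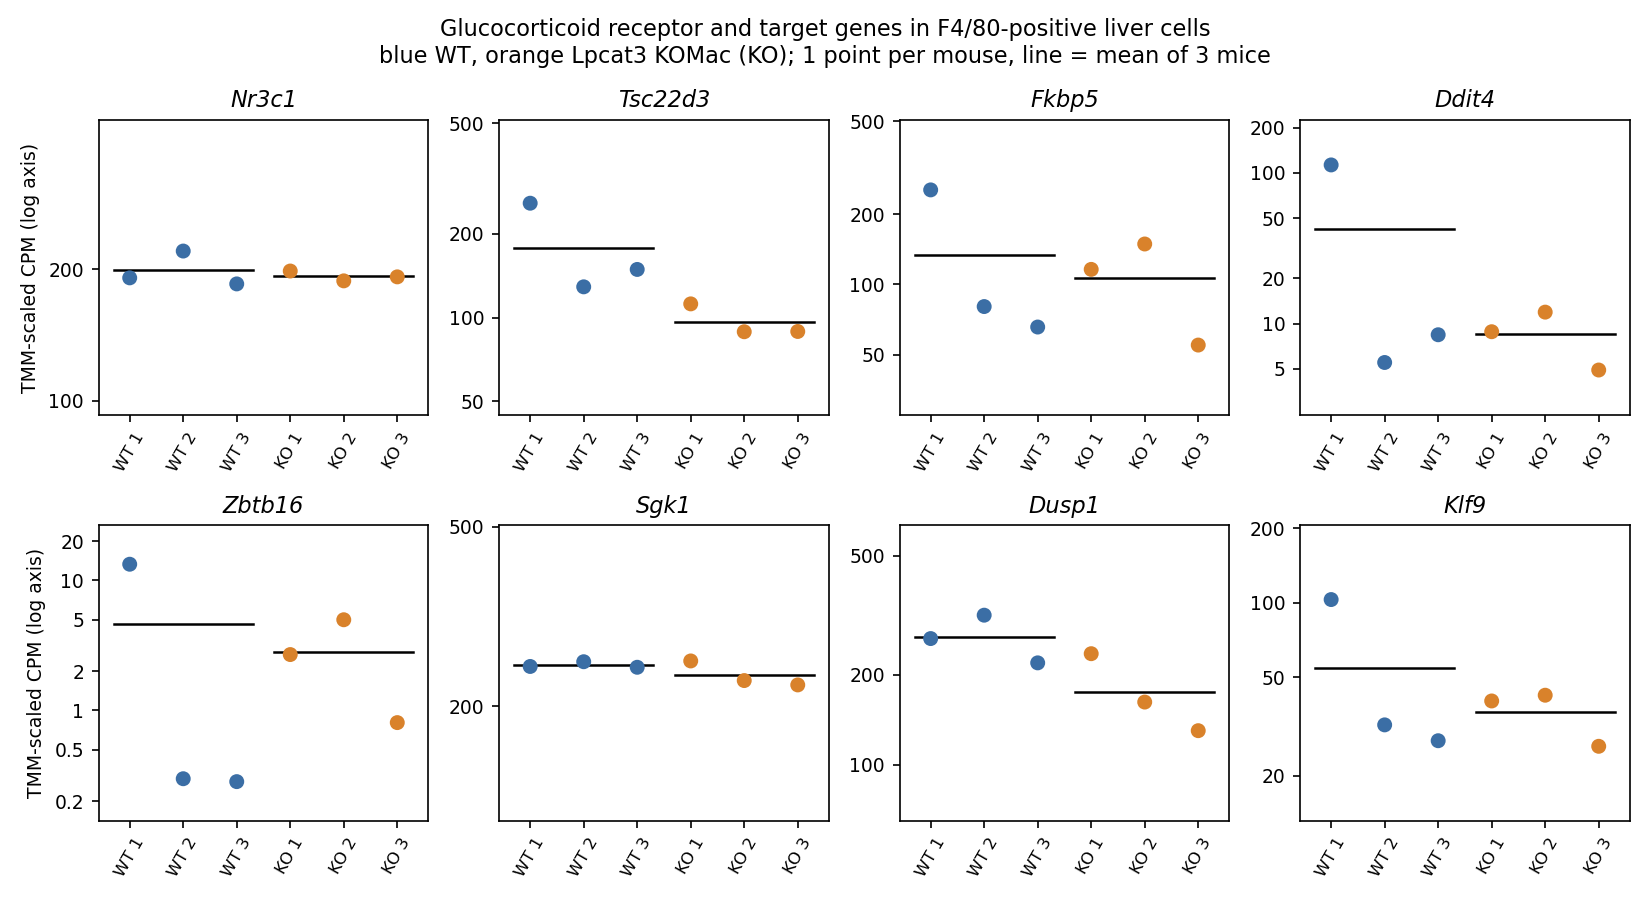
Level of the 8 members in each library, in TMM-scaled CPM on log axes that differ between panels; each point is 1 mouse (blue WT, orange Lpcat3 KOMac, written KO) and each line the mean of 3 mice. *Nr3c1* and *Sgk1* are nearly level, *Tsc22d3* is lower in all 3 Lpcat3 KOMac mice, and WT 1 lies far above WT 2 and WT 3 for *Fkbp5*, *Ddit4*, *Zbtb16* and *Klf9*.

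In the remaining members WT mouse 1 was the highest library, far above WT mice 2 and 3. *Ddit4* (ENSMUSG00000020108, chromosome 10, 59949675 to 59951770, minus strand), also known as REDD1, encodes an inhibitor of the growth kinase mTORC1 that responds to glucocorticoids and to hypoxia. It was at 113, 5.51 and 8.42 CPM in the WT mice 1 to 3, against 8.82, 11.9 and 4.91 CPM in Lpcat3 KOMac mice 1 to 3. WT mouse 1 was 9.5-fold above the next highest library, and the other 5 libraries lay between 4.91 and 11.9 CPM. The log2 fold change of -2.31 (SE 1.26, 95% interval -5.46 to 0.84, adjusted p = 1 in edgeR) therefore rested on WT mouse 1, and it was 0.30 (SE 0.42) without that mouse. Only 2% of all genes tested had a larger within-genotype SD.

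*Klf9* (ENSMUSG00000033863, chromosome 19, 23141226 to 23166911, plus strand) encodes a zinc finger transcription factor that is directly induced by glucocorticoids in many cell types and is also under the clock. Its level was 103, 32.1 and 27.7 CPM in the WT mice 1 to 3, against 40.1, 42.3 and 26.3 CPM in Lpcat3 KOMac mice 1 to 3. WT mouse 1 stood 2.44-fold above the next library, and the remaining libraries overlapped. The log2 fold change was -0.59 (SE 0.57, 95% interval -2 to 0.83), and 0.28 (SE 0.23) without WT mouse 1.

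*Fkbp5* (ENSMUSG00000024222, chromosome 17, 28399095 to 28517524, minus strand) encodes a co-chaperone that lowers the affinity of the receptor for its hormone and closes a feedback loop. It was at 254, 80.4 and 65.7 CPM in the WT mice 1 to 3, against 116, 149 and 55 CPM in Lpcat3 KOMac mice 1 to 3. The 3 highest libraries were WT mouse 1, Lpcat3 KOMac mouse 2 and Lpcat3 KOMac mouse 1, so the order crossed the genotypes. Its log2 fold change of -0.32 (SE 0.64, 95% interval -1.93 to 1.28) became 0.55 (SE 0.42) without WT mouse 1. Among all pairs of members other than *Nr3c1* and *Sgk1*, the profiles of *Fkbp5* and *Klf9* over the 6 libraries were the most alike, with a root mean square difference of 0.238 in centred log2 CPM, a description of 6 libraries that share their composition.

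*Zbtb16* (ENSMUSG00000066687, chromosome 9, 48654297 to 48836222, minus strand) encodes PLZF, a transcriptional repressor that marks natural killer T cells and is strongly induced by glucocorticoids in other cells. It had 861, 15 and 13 counts in WT mice 1 to 3 and 156, 258 and 38 counts in Lpcat3 KOMac mice 1 to 3. These counts correspond to 13.3, 0.299 and 0.284 CPM in WT and to 2.69, 4.98 and 0.807 CPM in Lpcat3 KOMac mice. The highest library exceeded the lowest 46.6-fold, and 0.118% of all genes tested had a larger within-genotype SD. The log2 fold change was -0.71 (SE 1.6, 95% interval -4.71 to 3.29), and 3.27 (SE 0.87, 95% interval 1.08 to 5.45, adjusted p = 0.294, edgeR) without WT mouse 1. Its direction thus turned with a single mouse. T, NK and NKT cell markers were low, with a sum over 7 genes of 1.54 to 4 CPM in WT and 3.55 to 6.08 CPM in Lpcat3 KOMac mice. The sum was 3.48 CPM in WT mouse 1, between those of WT mice 2 and 3. *Il7r* alone reached 4.08 CPM, in Lpcat3 KOMac mouse 1, and *Cd3e*, a chain of the T cell receptor complex, did not exceed 0.424 CPM. *Gzma* in WT mouse 2 and *Cd3g* in Lpcat3 KOMac mouse 3 had 3 counts each and were at the detection limit.

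**Figure D2:**
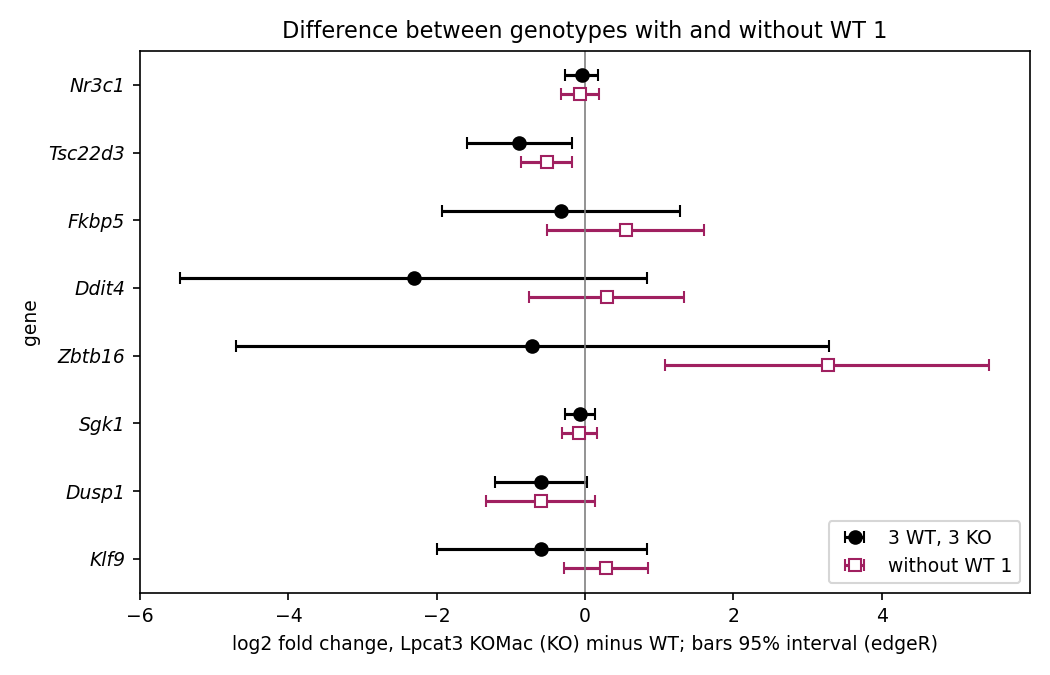
Log2 fold change of each member, Lpcat3 KOMac minus WT, with its 95% interval from edgeR, for all 6 mice (filled circles) and without WT 1 (open squares). Without WT 1 the estimates of *Fkbp5*, *Ddit4*, *Zbtb16* and *Klf9* lie above 0 instead of below it, while *Tsc22d3* moves from -0.89 to -0.52 and *Dusp1* stays at -0.60.

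The log2 fold change was below 0 in all 8, as it was in 59.9% of all genes tested, with a median of -0.59 beside -0.04 over all genes. Without WT mouse 1 it was below 0 in 4 of the 8, with a median of 0.10 beside -0.03 over all genes. WT mouse 1 was the highest library for 5 of the 8 members, against 28.2% of all genes tested. It was at least 2-fold above the next library for 3 of the 8 (*Ddit4*, *Zbtb16* and *Klf9*), against 2.65% of all genes and 2.66% of the 10666 genes with an exonic length in the range of the members. This way of counting was chosen after the values were seen, and these shares are a description of 1 library.

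The levels of these members moved with hepatocyte transcripts in part. The order of the libraries for *Zbtb16*, from WT mouse 1 over Lpcat3 KOMac mice 2, 1 and 3 down to WT mice 2 and 3, was that of the summed hepatocyte markers. *Fkbp5* and *Klf9* shared its upper end, with WT mouse 1 and Lpcat3 KOMac mice 2 and 1 as the highest libraries. WT mouse 1 exceeded Lpcat3 KOMac mouse 2, the next library in hepatocyte transcripts, 1.54-fold in the summed hepatocyte markers. Between the same libraries *Fkbp5* differed 1.71-fold, *Klf9* 2.44-fold, *Zbtb16* 2.66-fold, *Tsc22d3* 2.91-fold and *Ddit4* 9.5-fold, whereas *Nr3c1* (1.01-fold) and *Sgk1* (1.07-fold) hardly differed. *Dusp1* differed 1.62-fold, close to the hepatocyte markers, although its order over the 6 libraries was not theirs. These are ratios of single libraries without a replicate check. With the hepatocyte markers as a covariate in edgeR, the log2 fold changes of *Tsc22d3*, *Ddit4* and *Klf9* were -0.94, -1.77 and -0.62, each with an adjusted p of 0.475, and that of *Zbtb16* was 0.28. The part of hepatocyte RNA in the member levels was not tested beyond this covariate.

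Target genes of the receptor known from hepatocytes were highest in WT mouse 1, for all 6 of 6, against 28.2% of all genes tested. The gluconeogenic enzyme gene *Pck1* was at 801, 63.8 and 35.6 CPM in the WT mice 1 to 3, against 99.5, 235 and 101 CPM in Lpcat3 KOMac mice 1 to 3. *Tat*, which encodes tyrosine aminotransferase, was at 220, 20.8 and 17.9 CPM in WT mice, against 48.7, 87 and 51.3 CPM in Lpcat3 KOMac mice. *Tdo2*, for tryptophan dioxygenase, ranged from 26.7 to 541 CPM, and *Angptl4*, for an inhibitor of lipoprotein lipase, from 16.8 to 70.1 CPM. In *Tdo2* and *Angptl4* all libraries came in the order of the summed hepatocyte markers. In *Tat*, *Pck1* and *G6pc* only Lpcat3 KOMac mice 1 and 3 traded places, whose hepatocyte sums were close (4460 and 4340 CPM). *Igfbp1* departed further, at 2.22 CPM in Lpcat3 KOMac mouse 2 and at 4.1 and 2.42 CPM in Lpcat3 KOMac mice 1 and 3. *G6pc* and *Igfbp1* were named after their values were seen. None of the 6 was called, 0 had an unadjusted p under 0.05 in edgeR, and the median log2 fold change was -0.32. WT mouse 1 decided this direction: without it the median was 1.72 and all 6 had an unadjusted p under 0.05, higher in Lpcat3 KOMac cells, as had all 5 hepatocyte markers, with a median of 2.00. Of all genes, 9.67% passed in that direction without WT mouse 1 and 2.63% in the other, and 0 were called.

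**Figure D3:**
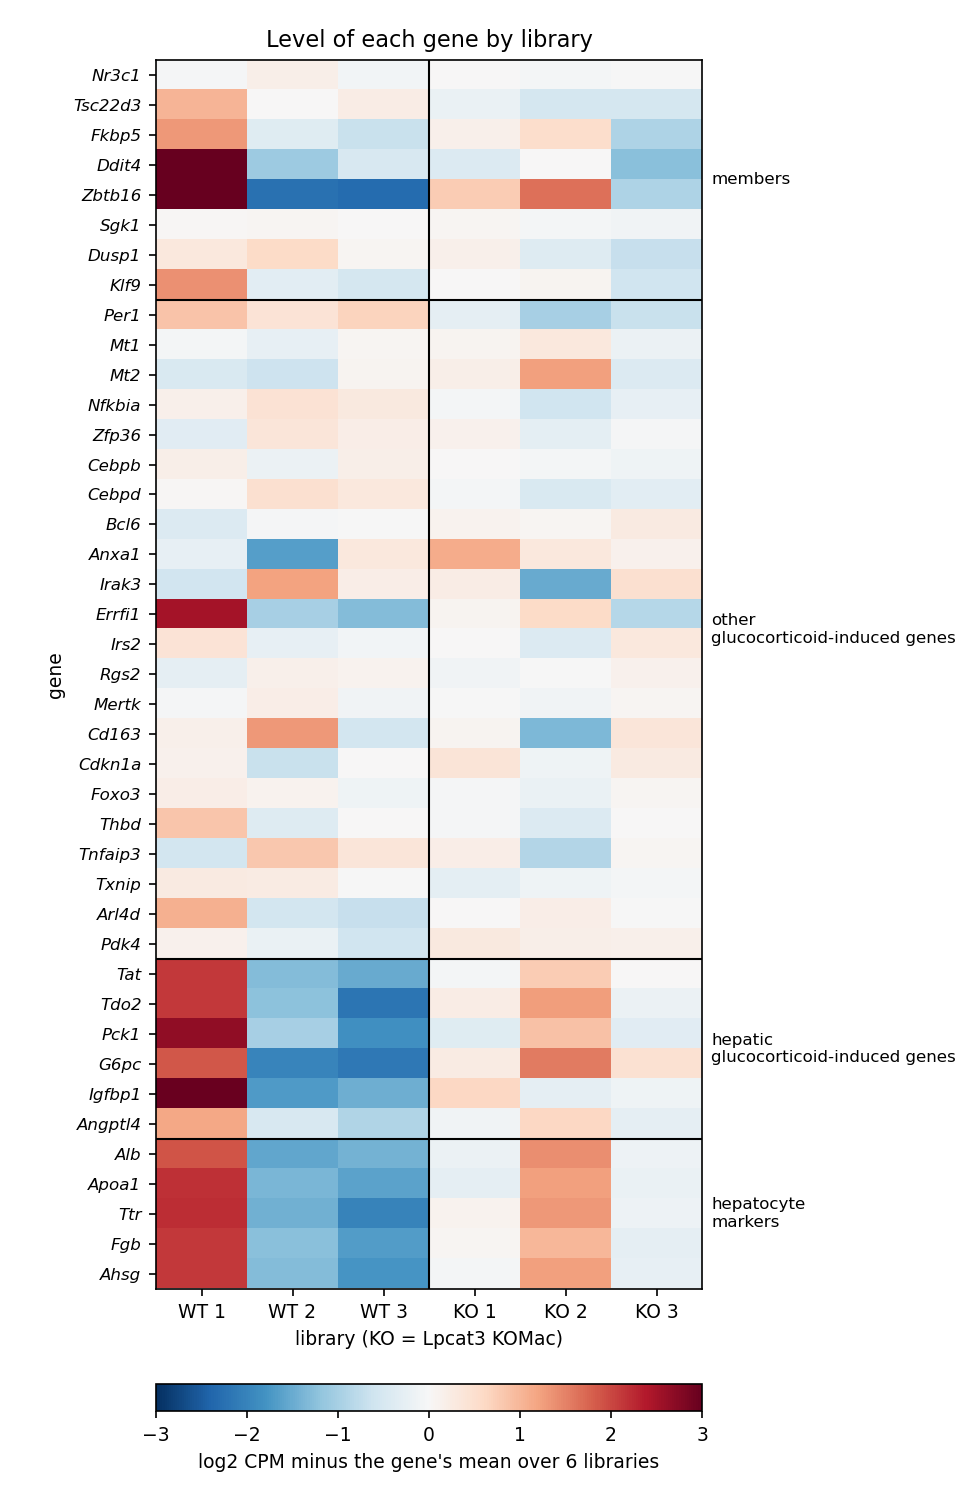
Log2 CPM of each gene minus its mean over the 6 libraries, for the members, 22 other glucocorticoid-induced genes, 6 glucocorticoid-induced genes of hepatocytes and 5 hepatocyte markers; red is above and blue below the gene's mean, with colors ending at -3 and 3, and KO is Lpcat3 KOMac. WT 1 is red for *Tsc22d3*, *Fkbp5*, *Ddit4*, *Zbtb16*, *Klf9*, *Errfi1* and the hepatocyte genes, and *Nr3c1* and *Sgk1* are pale throughout.

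Of 24 other genes that glucocorticoids are known to induce, 22 had enough counts. In edgeR 0 of the 22 were called, and 4 had an unadjusted p under 0.05, all 4 lower in Lpcat3 KOMac cells, a direction in which 1.57% of all genes passed. *Per1*, a clock gene with a glucocorticoid response element that had already been singled out from these same libraries, was at 58.1, 42.2 and 51 CPM in the WT mice 1 to 3, against 26.6, 16 and 20.3 CPM in Lpcat3 KOMac mice 1 to 3. Its log2 fold change was -1.27 (SE 0.22), with an adjusted p of 1 in edgeR. *Nfkbia*, which encodes the NF-kappaB inhibitor, was at 239, 290 and 264 CPM in WT mice, against 208, 143 and 181 CPM in Lpcat3 KOMac mice (log2 fold change -0.58, SE 0.16). *Cebpd*, for a transcription factor of the C/EBP family, was at 28.6, 38.9 and 34.8 CPM in WT mice, against 27.1, 20.6 and 22.7 CPM in Lpcat3 KOMac mice (log2 fold change -0.54, SE 0.16). *Txnip*, which encodes an inhibitor of thioredoxin, was at 507, 506 and 418 CPM in WT mice, against 345, 391 and 405 CPM in Lpcat3 KOMac mice (log2 fold change -0.33, SE 0.12).

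These 4 genes and *Tsc22d3* were lower in each Lpcat3 KOMac mouse than in each WT mouse. They were singled out by an unadjusted p under 0.05 in these same libraries, which favors such a separation. Of all genes tested, 5.2% were separated in this direction. WT mouse 1 stood 1.73-fold above the next library for *Tsc22d3* and 1.14-fold for *Per1*, and it was the lowest WT mouse for *Nfkbia* and *Cebpd*. Without WT mouse 1 the log2 fold changes of *Per1*, *Nfkbia*, *Cebpd* and *Txnip* were -1.15, -0.64, -0.65 and -0.28, with adjusted p-values of 0.294, 0.294, 0.294 and 0.459 in edgeR. Over the whole list, 15 of the 22 had a log2 fold change below 0 and 7 above, where 59.9% of all genes were below 0. The median of the list was -0.13 beside -0.04 over all genes. When WT mouse 1 was omitted, 3 were lower at an unadjusted p under 0.05 (*Per1*, *Nfkbia* and *Cebpd*) and 3 higher (*Errfi1*, *Arl4d* and *Pdk4*, with log2 fold changes of 1.19, 0.69 and 0.60), and the median was -0.06. Besides *Txnip*, the genes highest in level differed within the spread between mice, *Mertk*, a receptor for apoptotic cells, having a log2 fold change of -0.04 (SE 0.11) and the G protein regulator gene *Rgs2* 0.00 (SE 0.15). *Cd163*, the hemoglobin scavenger receptor, ranged from 684 to 2490 CPM in WT and from 396 to 1300 CPM in Lpcat3 KOMac mice (log2 fold change -0.64, SE 0.63). *Bcl6*, which encodes a transcriptional repressor, and *Pdk4*, for a kinase that restrains glucose oxidation, were higher in every Lpcat3 KOMac mouse (log2 fold changes 0.29 and 0.40, SEs 0.14 and 0.21). They were the only 2 of the 22 in that direction, where 2.29% of all genes tested were separated, and were named after their values were seen.

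**Figure D4:**
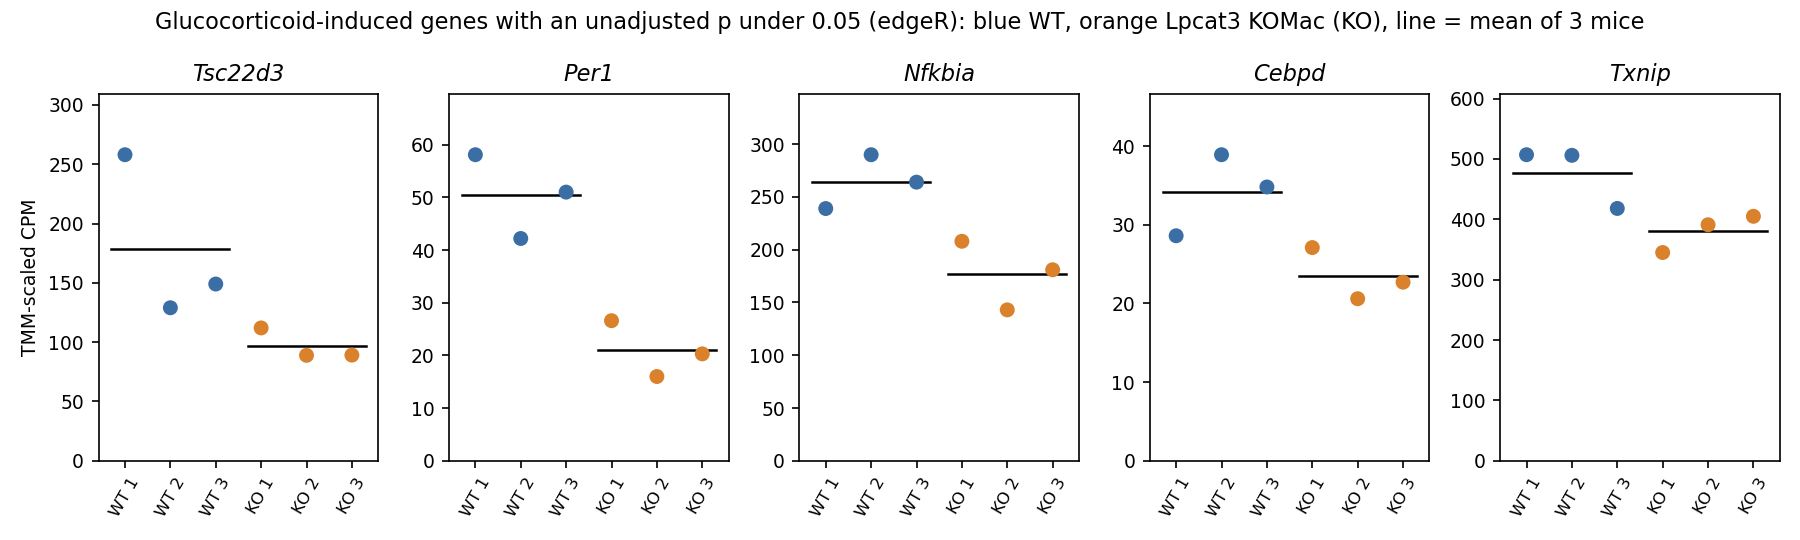
Level of *Tsc22d3* and of the 4 other glucocorticoid-induced genes with an unadjusted p under 0.05 in edgeR, in TMM-scaled CPM on linear axes; each point is 1 mouse (blue WT, orange Lpcat3 KOMac, written KO) and each line the mean of 3 mice. All 3 Lpcat3 KOMac mice lie below all 3 WT mice for each of these genes, with gaps that are narrow for *Txnip* and *Cebpd*. Picking genes by this p-value favors such a separation.

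Genes that supply hormone to the receptor varied with the hepatocyte transcripts. *Hsd11b1*, for the enzyme that regenerates active corticosterone inside cells, was at 120, 15.7 and 10.9 CPM in the WT mice 1 to 3, against 36.4, 83.3 and 33.2 CPM in Lpcat3 KOMac mice 1 to 3. *H6pd*, for the enzyme that feeds it with NADPH, ranged from 87.5 to 239 CPM in WT and from 112 to 174 CPM in Lpcat3 KOMac mice. *Serpina6*, for the corticosteroid-binding globulin of plasma, ranged from 7.19 to 89.1 CPM and from 12.3 to 63.8 CPM. All 3 genes were highest in WT mouse 1 and next in Lpcat3 KOMac mouse 2, as were the hepatocyte markers. *Hsd11b2*, whose product inactivates the hormone, had at most 3 counts in any library and was at the detection limit. *Nr3c2*, the mineralocorticoid receptor, was at 3.24 to 10.3 CPM in WT and 5.81 to 7.52 CPM in Lpcat3 KOMac mice, and the steroid exporter genes *Abcb1a* and *Abcb1b* did not exceed 5.05 and 2.95 CPM. Of this list 6 of 7 genes were tested, 0 were called, and 0 had an unadjusted p under 0.05 in edgeR, with a median log2 fold change of 0.04. In the fit that omitted WT mouse 1 the median was 0.61, and 2 genes had an unadjusted p under 0.05, *Hsd11b1* with a log2 fold change of 1.94 (SE 0.49, against 0.06 with all mice) and *Serpina6* with 1.93 (SE 0.75, against -0.12).

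The chaperones that hold the receptor ready were set apart mainly in WT mouse 1. All 11 of 11 had a log2 fold change below 0, as had 59.9% of all genes tested. Their median was -0.23, and 0 had an unadjusted p under 0.05 in edgeR. WT mouse 1 was the highest library for 10 of the 11, against 28.2% of all genes tested. The groups did not overlap for 1, the co-chaperone gene *Bag1*, named after its values were seen. Of all genes tested, 5.2% were separated in that direction. *Hspa8* was at 2470, 1490 and 1460 CPM in the WT mice 1 to 3, against 1560, 1690 and 1380 CPM in Lpcat3 KOMac mice 1 to 3. *Hsp90ab1*, *Hsp90aa1* and the HSP40 gene *Dnaja1* had log2 fold changes of -0.22, -0.25 and -0.26 (SEs 0.16, 0.26 and 0.39). Without WT mouse 1, 2 of the 11 were below 0, and the median was 0.05.

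The named coregulators of the receptor had log2 fold changes near 0. Of 13 genes 0 were called, 0 had an unadjusted p under 0.05 in edgeR, and the median log2 fold change was 0.02. The coactivator gene *Ncoa3* had a log2 fold change of -0.09 (SE 0.17), the corepressor gene *Ncor1* 0.05 (SE 0.09), the chromatin remodeler gene *Smarca4* 0.02 (SE 0.10) and the acetyltransferase gene *Ep300* 0.00 (SE 0.18). The coactivator gene *Ppargc1a*, named after its values were seen, ranged from 0.131 to 2.37 CPM, with a log2 fold change of 0.26 (SE 1.1). It was at 2.37 (SE 0.74) when WT mouse 1 was omitted, the only coregulator with an unadjusted p under 0.05, and the median of the 13 was -0.13.

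Among inflammatory genes that the receptor restrains, no gene passed the test with all mice. Of 12 genes 0 were called and 0 had an unadjusted p under 0.05 in edgeR, with a median log2 fold change of 0.09. WT mouse 1, the highest library for 5 members, was the highest for 0 of these 12 genes and for 28.2% of all genes tested. It was also the highest for 0 of the 6 Kupffer cell markers and 1 of the 13 coregulators, but for all 5 hepatocyte markers. *Il1b*, for interleukin 1 beta, was at 80.1, 262 and 279 CPM in the WT mice 1 to 3, against 144, 90.5 and 167 CPM in Lpcat3 KOMac mice 1 to 3. The adhesion molecule gene *Icam1* was at 138, 270 and 199 CPM in WT mice, against 206, 153 and 178 CPM in Lpcat3 KOMac mice. *Il1a* and *Cxcl10*, for interleukin 1 alpha and a chemokine for T cells, had log2 fold changes of 0.13 (SE 0.21) and -0.28 (SE 0.44). The lowest library was WT mouse 1 for *Il1b*, *Icam1* and *Il1a*. Once WT mouse 1 was omitted the median was -0.16, *Il1a* was at -0.05 and *Cxcl10* at -0.56, and 2 genes had an unadjusted p under 0.05. These were *Il1b*, with a log2 fold change of -1.02 (SE 0.26), and *Il6*, for interleukin 6, with -1.68 (SE 0.56), neither of them called.

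As *Klf9* and *Per1* are also clock genes and *Dusp1* an immediate early gene, both groups were read beside them. Of 13 clock genes 0 were called and 1 had an unadjusted p under 0.05 in edgeR, the repressor gene *Cry1*, at 4.89, 2.3 and 3.76 CPM in the WT mice 1 to 3, against 7.77, 8.22 and 5.12 CPM in Lpcat3 KOMac mice 1 to 3 (log2 fold change 0.95, SE 0.34). *Nr1d1* and *Nr1d2*, for the REV-ERB repressors, had log2 fold changes of -0.48 (SE 0.47) and -0.34 (SE 0.36), the activator gene *Clock* 0.04 (SE 0.11) and the output gene *Tef* 0.19 (SE 0.51). Of the 13 clock genes, 9 had a log2 fold change above 0, as had 6466 of all 16134 genes tested. Their median was 0.19 beside -0.04 over all genes, whereas the log2 fold change of *Per1* was below 0. Omitting WT mouse 1 gave a median of 0.54, and *Nr1d1* was at -0.03 and *Tef* at 0.54. An unadjusted p under 0.05 was then found for 2 clock genes, *Cry1* (log2 fold change 1.22, SE 0.34) and *Hlf*, for an output factor of the clock (2.35, SE 0.82). Of 12 immediate early genes 0 were called and 2 had an unadjusted p under 0.05: *Btg2*, for an inhibitor of proliferation, had a log2 fold change of -0.59 (SE 0.16) and *Atf3*, for a stress-induced transcription factor, 0.58 (SE 0.23). *Btg2* was lower in every Lpcat3 KOMac mouse, the only gene of the 12 to be so, where 5.2% of all genes tested were separated in this direction. At an unadjusted p under 0.05 in edgeR, 1.57% of all genes were lower in Lpcat3 KOMac mice and 1.07% higher. Like *Nfkbia* and *Cebpd*, *Btg2* was highest in WT mouse 2 and lowest in Lpcat3 KOMac mouse 2. All 6 Kupffer cell markers had this highest and this lowest library too. *Fos*, *Jun* and *Junb*, which encode AP-1 subunits, had -0.09, 0.01 and -0.34 (SEs 0.45, 0.31 and 0.26). With WT mouse 1 omitted, *Btg2*, *Junb* and *Ier3* were lower at an unadjusted p under 0.05 (-0.69, -0.53 and -0.58), and *Atf3* was at 0.41 (SE 0.18). In that edgeR fit 2.63% of all genes were lower at this p and 9.67% higher. *Dusp1* was highest in WT mouse 2, as were *Fos*, *Jun*, *Junb* and *Btg2*, whereas *Dusp1* was lowest in Lpcat3 KOMac mouse 3 and *Fos* in WT mouse 1. The part of the hour or of the cell isolation in these levels was not tested.

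Levels of different genes were compared per length, as CPM per kilobase of exons. *Dusp1* was the most abundant member, with a median of 84.3 and a range of 48.3 to 117 CPM per kilobase over the 6 libraries. *Sgk1* followed with a median of 49.8 (45.5 to 51.4), overlapping *Dusp1*. *Tsc22d3* (median 27.8, 20.5 to 59.5) and *Nr3c1* (median 25.8, 25 to 29.6) overlapped each other, and *Nr3c1* was below *Sgk1* in every library. *Fkbp5* (median 15.4, 8.64 to 40), *Klf9* (median 11.1, 8.06 to 31.7) and *Ddit4* (median 5.11, 2.91 to 67.1) overlapped widely. *Zbtb16* was the lowest, at most 2.51 CPM per kilobase and below every other member in every group.

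The genes whose profile over the 6 libraries was most like that of the receptor were *Ddx54*, *Zfp148*, *Ubr2*, *Usp32* and *Efr3a*, among 9070 genes with a mean of at least 10 CPM. Their root mean square differences from *Nr3c1* in centred log2 CPM were 0.0121 to 0.0266, and log2 fold changes ran from -0.05 to -0.01. Like the receptor, these genes were nearly level across the mice. For *Tsc22d3* the most alike were *Usp18*, *Rcan1*, *Creld2*, *Arid5b* and *Ifitm3*, with differences of 0.246 to 0.273 and log2 fold changes between -0.58 and -0.40. Each of these differences was larger than those found for *Nr3c1*.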

How the data were processed

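Read counts per Ensembl gene (49315 genes) were deposited by the authors, 1 table per mouse, without normalization. The submitters' processing notes name Trimmomatic 0.36, STAR 2.5.2b, featureCounts of Subread 1.5.2 and GRCm38. The strand setting and the handling of multiply mapped reads are not given in the sources used here, so reads of overlapping genes on opposite strands cannot be told apart. Of the identifiers, 49056 were found in GENCODE M21. Genotype and replicate number came from the sample titles.

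The genotypes were compared in edgeR 4.0.16 under R 4.3.3, with TMM scaling, the default expression filter (minimum count 10), and a robust quasi-likelihood test on genotype alone. Benjamini-Hochberg adjustment ran over 16134 genes, and a gene was called under 0.05. The SE of a log2 fold change is its size over the root of its F statistic. Log2 CPM values used a prior count of 2. No library repeated another (pairwise chi-square over its degrees of freedom ran from 37 to 472). A level of 3 counts or fewer was taken as the detection limit; totals of 44954224 to 71392812 counts made counting error minor next to differences among mice. The fits were run on simulated counts with 200 changed genes, the same dispersion for all genes and no outlying library. These settings differ from the libraries here, so the simulation does not show how the tests perform on them.

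The members and gene lists were chosen with earlier results of these data known. Named are the members, the hormone supply genes, and from each other list the 4 highest genes and those with an unadjusted p under 0.05. Genes that had such a p only in the fit without WT mouse 1 were also named, after those values were seen. Other genes of these lists named otherwise are marked. The 5 most alike genes were those with the smallest root mean square difference. Alternatives were DESeq2 1.42.0, limma-voom 3.58.1, other scalings and filters, no robust dispersion, a replicate block, a hepatocyte covariate and leaving out each mouse. Leaving out WT mouse 1 and Lpcat3 KOMac mouse 2 together was chosen after seeing the data. Each mouse gave 1 library.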

Additional observations from a re-analysis of the deposited data

How the results depend on the processing

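The number of members called was 0 in edgeR and under all 16 alternatives, and the number of all genes called was 0 except with DESeq2, which called 11. Without WT mouse 1, 2028 genes had an unadjusted p under 0.05 in edgeR, with the hepatocyte covariate 1490, against 426 in the fit on genotype alone. *Tsc22d3* and *Dusp1* kept their direction under all 16 alternatives, although leaving out 1 mouse could hardly turn that of *Tsc22d3*, whose groups did not overlap. Over the 6 fits that each omitted a mouse, log2 fold changes ranged from -2.83 to 0.30 for *Ddit4*, from -0.65 to 0.55 for *Fkbp5*, from -0.90 to 0.28 for *Klf9*, from -0.09 to 0.03 for *Nr3c1* and from -1.42 to 3.27 for *Zbtb16*. The positive ends came without WT mouse 1, except for *Nr3c1* (without WT mouse 2), and *Fkbp5* was also at 0.01 without Lpcat3 KOMac mouse 3. Without both WT mouse 1 and Lpcat3 KOMac mouse 2 the values were 0.23 for *Fkbp5*, 0.15 for *Klf9* and 2.58 for *Zbtb16*. With total counts alone they were 0.05 for *Nr3c1* and 0.02 for *Sgk1*. *Zbtb16* was at 0.92 with limma-voom, 1.13 with the replicate block and 0.28 with the hepatocyte covariate. The cause of these turns was not tested, except that leaving out a mouse removes its value.

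The replicate numbers come from the titles alone, and only 1 of the 3 same-numbered pairs deviated together (correlations across genes of -0.303, -0.596 and 0.36), so the numbers were not taken as pairing the mice. The replicate block called 0 genes, and 138 had an unadjusted p under 0.05 in edgeR, 2 members among them. DESeq2 gave no p-value for *Ddit4*.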

Other observations

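Some further genes set WT mouse 1 apart and were picked out after their values were seen. *Errfi1*, which encodes an inhibitor of the EGF receptor and is induced by glucocorticoids, was at 473, 42.1 and 33.6 CPM in the WT mice 1 to 3, against 88.8, 124 and 46.5 CPM in Lpcat3 KOMac mice 1 to 3. *Igfbp1*, for a hepatic binding protein of insulin-like growth factors, was at 21, 0.799 and 0.94 CPM in WT mice, against 4.1, 2.22 and 2.42 CPM in Lpcat3 KOMac mice. *Hspa1b*, for an inducible heat shock protein, was at 41.9, 4.43 and 4.24 CPM in WT mice, against 14.1, 5.17 and 5.14 CPM in Lpcat3 KOMac mice. In these genes WT mouse 1 was 3.81-, 5.12- and 2.97-fold above the next library. The metallothionein gene *Mt2*, also induced by glucocorticoids, was instead highest in Lpcat3 KOMac mouse 2, at 3.84 CPM, against 1.15 CPM in WT mouse 1.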
